A study of Mus musculus with 8 samples.

Results

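The 78 genes described here encode the proteins of the mitochondrial ribosome that carry Mrp symbols. They were taken from the 55487 rows of the deposited expression table by mouse symbol alone, as every gene named Mrpl or Mrps with a number and at most 1 further letter, pseudogenes left out. Of these, 26 belong to the small subunit and 51 to the large subunit, and Mrps36 belongs to neither. Measured values played no part in that choice of symbols. Mrps18a and Mrps30, despite their names, sit in the large subunit of the mammalian mitochondrial ribosome and were counted there.

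The mitochondrial ribosome translates the few mRNAs that mitochondrial DNA encodes, all of them for membrane subunits of the respiratory chain and the ATP synthase. Its RNAs are made inside the organelle, whereas all of its proteins are encoded in the nucleus, made on cytosolic ribosomes and imported. Some descend from bacterial ribosomal proteins and others were added during the evolution of mitochondria. Neurons and neural progenitors of the developing cortex depend on the respiratory chain this ribosome supplies, and inherited defects of several of its proteins cause neurological disease in humans.

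RNA of the E18.5 mouse cortex was sequenced in 4 libraries labelled Upf2cKO and 4 control libraries. Upf2 encodes a factor at the centre of nonsense-mediated decay (NMD), which destroys mRNAs whose reading frame ends too early. The Upf2cKO genotype joined homozygous floxed Upf2 (Upf2 fl/fl) with Emx1-Cre, a Cre recombinase active in dorsal forebrain progenitors and their descendants, the cortical excitatory neurons and glia. Controls 1, 3 and 4 were Upf2 fl/fl and control 2 was Upf2 fl/+, all without Cre, so every group carried at least 1 floxed allele. Interneurons, microglia, blood cells and vessels in the cortex arise outside the Emx1 lineage and keep Upf2 in the mutant. The labels do not say which embryos shared a litter, and p-values measure the spread between these libraries.

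An estimated 96.6 M to 156.0 M reads were counted over genes in each library, so 1 read was worth 0.00641 to 0.0104 CPM, the unit in which the reads of every library add up to 1 M. Upf2 (chr2:5951469-6056703, mm10, plus strand) averaged 143 ± 7.84 CPM in Upf2cKO libraries and 61.8 ± 4.58 CPM in controls (SD, n = 4 each), 2.31-fold higher (limma, adjusted p = 3.35e-08). This is the total over the gene, which cannot show whether floxed exons were lost, and its direction is opposite to a loss of the transcript, so the libraries are called by their labels throughout. Cortical excitatory neuron markers were present in all libraries and summed to 2155 to 2539 CPM in Upf2cKO against 2747 to 2997 CPM in controls, with 2 of 8 markers higher and 5 lower. Of the radial glia markers, 6 of 7 were lower, with sums of 864 to 1020 CPM in Upf2cKO against 1291 to 1348 CPM in controls. All 6 interneuron markers were higher, with sums of 489 to 579 CPM in Upf2cKO against 327 to 367 CPM in controls, and 5 of 6 microglia markers were higher, with sums of 78.8 to 114 CPM in Upf2cKO against 31.3 to 41.6 CPM in controls. Of the endothelial markers, 4 of 5 were lower, with sums of 114 to 122 CPM in Upf2cKO against 147 to 155 CPM in controls, and all 5 erythroid markers were lower, with 81.5 to 119.7 CPM in Upf2cKO against 144 to 169.6 CPM in controls. Markers of neighbouring regions were lower too, all 5 of the striatum (32.9 to 39.5 CPM in Upf2cKO against 54.5 to 59.7 CPM in controls) and 2 of 3 tested of the thalamus. Of the 5 fibroblast markers, 1 was higher (Dcn, 3.47-fold) and 1 lower (Pdgfra). Their sums overlapped, with 57.9 to 64.9 CPM in Upf2cKO against 52.0 to 68.0 CPM in controls. Most of these sums came from Pdgfra, which averaged 46.0 CPM in Upf2cKO and 53.3 CPM in controls, so they say little of the other fibroblast markers. Dcn averaged 9.42 CPM in Upf2cKO and 2.63 CPM in controls. Choroid plexus markers were abundant in Upf2cKO 4 (271 CPM) and in control 4 (125 CPM) and summed to 2.77 to 7.91 CPM in the other Upf2cKO libraries and 2.31 to 30.2 CPM in the other controls. The part of these shifts in the results below was not tested, and in bulk RNA a change in the share of a cell type cannot be told apart from a change in RNA per cell.

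The mitochondrial ribosomal protein genes split in both directions, mostly by small amounts, and 2 small-subunit genes on chromosome 17, Mrps10 and Mrps18b, stood far above the rest. Of the 77 members that passed the filter on low values, 19 were higher and 26 were lower in Upf2cKO (limma, adjusted p below 0.05 over all 16573 genes tested). That is 24.7% and 33.8% of the members, where 36.7% of all tested genes were higher and 26.3% were lower. The median log2 change was -0.07 over the members and 0.04 over all tested genes. Only Mrps10 and Mrps18b passed the test with at least 2-fold higher levels (9.74% of all tested genes did), and no member was at least 2-fold lower (0.827% of all tested genes). The other 75 members lay within 1.5-fold of the controls.

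On another scale the split shifted. With TPM, which also divides by gene length, 24 members were higher and 21 lower, with a median log2 change of -0.01 and a background of 36.7% higher and 16.7% lower over the 19986 genes that pass the filter on that scale. Of the 16409 of these that were also tested on CPM, 6487 were higher and 3183 lower by TPM. With median-of-ratios scaling of the CPM, 17 were higher and 36 lower, with a median of -0.13 and a background of 33.1% and 31.7%. No member called on the CPM scale changed sign on either scale. All 4 Upf2cKO libraries lay above all 4 controls for 19 members and below them for 24, where 34.3% of all tested genes separated upwards and 22.3% downwards. Mrpl53 (chr6, large subunit) was listed at 0 in all 8 libraries and was not tested. Its exons share 695 bases on the same strand with a predicted gene, Gm42688.

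**Figure D1:**
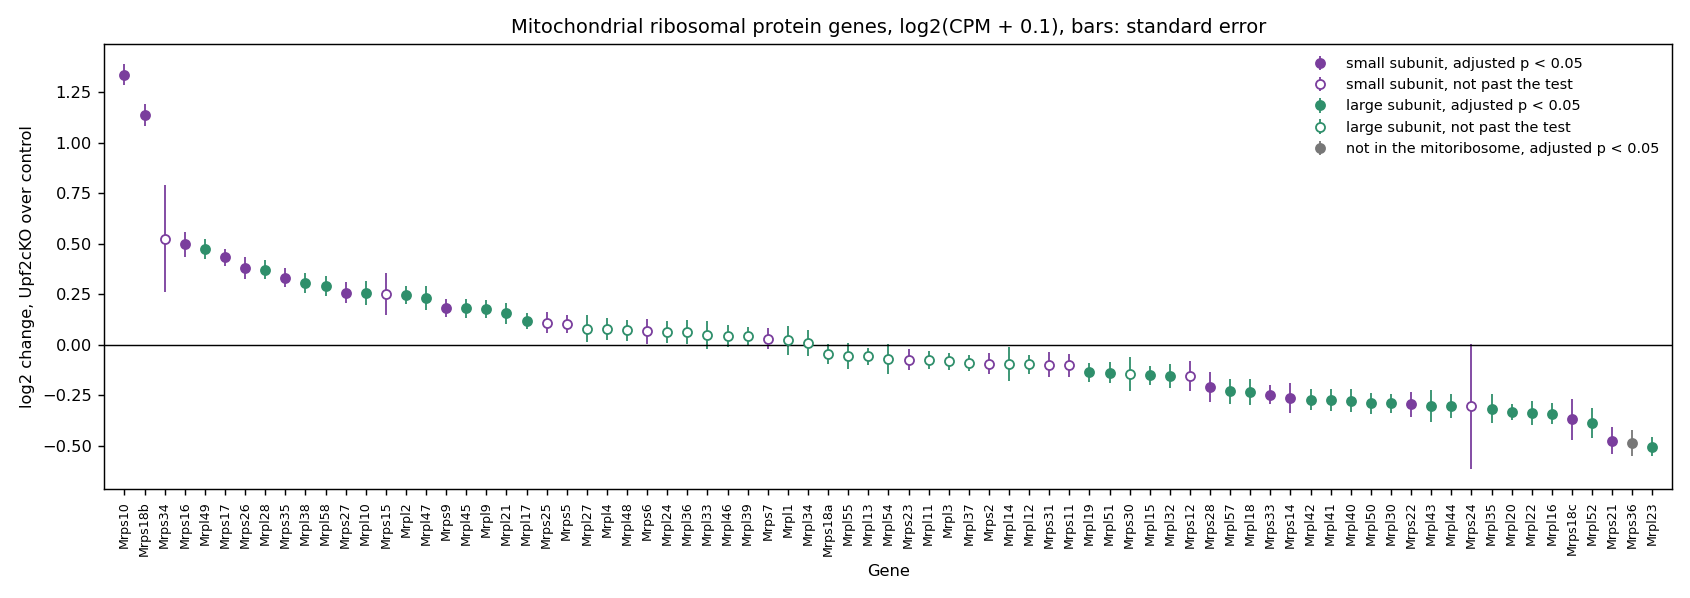
Log2 change in CPM (Upf2cKO over control, vertical axis in log2 units) of each of the 77 tested mitochondrial ribosomal protein genes, sorted along the horizontal axis, with bars for the standard error. Colour gives the subunit and filled points mark genes past the limma threshold. Mrps10 at 1.34 and Mrps18b at 1.14 stand apart at one end, and the other end reaches -0.50 with Mrpl23.

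Mrps10 encodes a small-subunit protein descended from the bacterial ribosome (chr17:47368887-47381417, mm10, plus strand). It had 82.7, 87.9, 92.5 and 90.6 CPM in Upf2cKO libraries 1 to 4, against 36.0, 35.5, 36.3 and 32.2 CPM in controls 1 to 4. Every Upf2cKO library lay far above every control, with little spread inside either group. The means were 88.4 ± 4.25 CPM in Upf2cKO and 34.97 ± 1.91 CPM in controls (SD, n = 4 each), a log2 change of 1.34 (SE 0.05) or 2.52-fold (limma, adjusted p = 7.91e-09).

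Mrps18b lies on the same chromosome (chr17:35910379-35916389, minus strand) and encodes 1 of 3 paralogs related to a single bacterial protein. Its levels were 25.18, 25.03, 26.01 and 24.53 CPM in Upf2cKO libraries 1 to 4, against 12.2, 11.6, 10.8 and 11.1 CPM in controls 1 to 4. Again the groups were far apart and each was tight. The means of 25.2 ± 0.615 CPM in Upf2cKO and 11.4 ± 0.611 CPM in controls gave a log2 change of 1.14 (SE 0.05), or 2.20-fold (adjusted p = 3.19e-08). Of its paralogs, Mrps18c was lower, with 4.49, 3.82, 4.33 and 5.05 CPM in Upf2cKO and 6.47, 5.50, 5.57 and 5.39 CPM in controls (1.29-fold lower, adjusted p = 0.00819). Mrps18a averaged 29.3 CPM in Upf2cKO and 30.2 CPM in controls (log2 change -0.05, adjusted p = 0.453). An antisense transcript, Gm16279, shares 638 exon bases with Mrps18b on the other strand, and it had only 1.46 CPM in Upf2cKO and 1.19 CPM in controls.

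Promoters of the members were searched for motifs known from genes of mitochondrial proteins. A RefSeq promoter window (GRCm38.p6, 250 bases before to 50 bases after the start of transcription, 300 bases in all) was matched for 69 of the 78 members, and 16453 other protein-coding genes served for comparison. These other genes were not filtered by level, and only 14030 protein-coding genes were tested here. The comparison is thus not one with expressed genes alone. The core motif of ETS factors, CCGGAAG, searched on both strands, was in 25 of the 69 windows (36.2%) and in 12.2% of the windows of the other genes. It was in 7 of 17 windows of higher members, in 10 of 23 of lower members and in 7 of 28 of members not called. The YY1 motif AAGATGGC was in 17.4% of member windows and in 3.23% of the others, and the palindromic NRF1 motif was in 4.35% and in 1.36%. CCAAT was in 39.1% and in 38.7%, the GC box GGGCGG in 49.3% and in 48.0%, and TATAAA in 5.80% and in 12.9%. These are exact matches of letters, with no measure of binding, and sites that differ from a motif at any base were not counted. The 250 bases before the start are shown for both far risers, for a further riser (Mrps26) and for a gene that fell (Mrpl52), 5′ to 3′ on the strand of the gene. Mrps26 and Mrpl52 were chosen because they hold an ETS, YY1 or NRF1 match in this stretch. Among members with a single RefSeq window, 5 higher and 8 lower ones did, and the largest mover of each direction was taken. Capitals mark the ETS motif, which reads CTTCCGG here because it lies on the opposite strand.
Mrps10 (chr17:47368947-47369196, plus strand): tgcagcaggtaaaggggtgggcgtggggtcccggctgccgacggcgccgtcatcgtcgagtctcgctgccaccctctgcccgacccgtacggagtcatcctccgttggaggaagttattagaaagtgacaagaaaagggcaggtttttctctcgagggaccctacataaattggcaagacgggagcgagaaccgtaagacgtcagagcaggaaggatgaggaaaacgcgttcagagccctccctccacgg
Mrps18b (chr17:35916441-35916690, minus strand): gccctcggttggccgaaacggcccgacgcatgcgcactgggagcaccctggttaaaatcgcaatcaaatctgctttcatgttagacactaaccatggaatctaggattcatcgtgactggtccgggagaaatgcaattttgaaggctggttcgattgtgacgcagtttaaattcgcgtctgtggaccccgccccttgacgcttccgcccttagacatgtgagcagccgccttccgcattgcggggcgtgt
Mrps26 (chr2:130563507-130563756, plus strand): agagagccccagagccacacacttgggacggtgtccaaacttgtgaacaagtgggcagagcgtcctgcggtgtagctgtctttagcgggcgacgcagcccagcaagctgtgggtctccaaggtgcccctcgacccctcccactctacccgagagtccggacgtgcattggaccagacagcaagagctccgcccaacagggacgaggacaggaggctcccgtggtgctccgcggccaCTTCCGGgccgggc
Mrpl52 (chr14:54426659-54426908, plus strand): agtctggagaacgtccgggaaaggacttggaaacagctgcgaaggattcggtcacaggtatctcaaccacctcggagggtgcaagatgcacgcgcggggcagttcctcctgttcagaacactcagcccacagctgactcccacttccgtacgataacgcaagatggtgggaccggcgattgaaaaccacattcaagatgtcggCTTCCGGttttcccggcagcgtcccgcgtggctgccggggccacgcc
The RefSeq start of Mrps10 lies inside the span given above, which comes from GENCODE. That of Mrps26 lies inside its GENCODE span too, which begins at chr2:130563742, and that of Mrps18b lies outside its span. Positions relative to the start therefore depend on the annotation. Neither far riser has an exact match to the ETS, YY1 or NRF1 motif in this stretch. Mrps18b does hold a near match to the palindromic NRF1 motif there, so an NRF1 site in it is not excluded. Mrps18b also has the ETS motif within the 50 bases after the start and is counted among the 7 higher members above. In Mrps26 and Mrpl52, both chosen for holding such a motif, the ETS motif begins 14 and 47 bases before the RefSeq start. The GC content of the 4 stretches ran from 54.8% (Mrps18b) to 65.2% (Mrps26).

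The other 17 members that rose did so by 1.08-fold to 1.41-fold. Mrps16, a small-subunit protein of bacterial descent (chr14:20389304-20393634), had 28.7, 28.8, 28.1 and 26.3 CPM in Upf2cKO libraries and 19.0, 20.1, 18.4 and 22.0 CPM in controls. The groups did not overlap, and the gene was 1.41-fold higher (adjusted p = 4.86e-05). Mrpl49, a large-subunit protein added in mitochondria (chr19:6053622-6057785), had 43.2, 42.6, 46.1 and 48.8 CPM in Upf2cKO against 32.5, 33.3, 31.8 and 32.4 CPM in controls. It was 1.39-fold higher (adjusted p = 1.31e-05), with 91 exon bases shared with Syvn1 on the other strand.

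The next 4 of the largest risers were close in size. Mrps17, another protein of bacterial descent, had 104, 98.2, 104 and 109 CPM in Upf2cKO against 80.0, 76.7, 74.8 and 76.1 CPM in controls, 1.35-fold higher (adjusted p = 6.78e-06). Mrps26, a mitochondrial addition to the small subunit, had 35.1, 36.9, 35.5 and 33.5 CPM in Upf2cKO against 25.3, 28.0, 26.2 and 28.9 CPM in controls, 1.30-fold higher (adjusted p = 0.000124). None of these Upf2cKO libraries fell into the range of the controls. Mrpl28, of the large subunit, was 1.29-fold higher (adjusted p = 5.08e-05), with 45.9 to 47.6 CPM in Upf2cKO and 33.9 to 38.4 CPM in controls. Mrps35, of the small subunit, was 1.26-fold higher (adjusted p = 0.00013), with 31.8 to 35.5 CPM in Upf2cKO and 26.5 to 27.7 CPM in controls.

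The 26 members that fell did so by 1.10-fold to 1.42-fold. Mrpl23, which lines the outlet of the tunnel through which the new protein leaves the large subunit (chr7:142532686-142540747, plus strand), fell most. It had 21.2, 21.9, 21.6 and 21.7 CPM in Upf2cKO libraries against 29.6, 31.3, 29.8 and 32.2 CPM in controls. All Upf2cKO libraries lay close together and well under the controls. The means of 21.6 ± 0.288 CPM in Upf2cKO and 30.7 ± 1.23 CPM in controls (SD, n = 4 each) gave a log2 change of -0.50 (SE 0.05), or 1.42-fold lower (limma, adjusted p = 3.67e-06).

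Mrps36 (chr13:100735955-100744659), whose product is a subunit of the 2-oxoglutarate dehydrogenase complex in mammals and not of the ribosome, had 14.6, 14.3, 16.3 and 14.1 CPM in Upf2cKO against 20.2, 20.5, 20.2 and 22.3 CPM in controls. It was 1.40-fold lower (adjusted p = 5.38e-05), with no overlap. Mrps21, a small-subunit protein of bacterial descent (chr3:95862634-95871519), had 25.9, 22.5, 24.4 and 22.4 CPM in Upf2cKO against 33.8, 33.6, 29.6 and 35.3 CPM in controls and was 1.39-fold lower (adjusted p = 0.000126). Mrps21 had the highest TPM of all members, and its level per length was 133 ± 9.34 TPM in Upf2cKO and 177 ± 11.7 TPM in controls. Mrpl52, a mitochondrial addition to the large subunit (chr14:54426909-54429756), had 25.9, 28.4, 31.9 and 28.8 CPM in Upf2cKO against 36.9, 39.7, 33.9 and 40.1 CPM in controls and was 1.31-fold lower (adjusted p = 0.000851). For Mrps21 and Mrpl52 the groups did not overlap, although the nearest libraries were close.

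Mrpl16, Mrpl22 and Mrpl20, all large-subunit proteins of bacterial descent, followed with smaller and tight changes. Mrpl16 had 16.9 to 17.9 CPM in Upf2cKO and 20.7 to 23.3 CPM in controls (1.27-fold lower, adjusted p = 0.000196). Mrpl22, a protein of the exit tunnel, had 15.3 to 16.3 CPM in Upf2cKO and 18.6 to 21.6 CPM in controls (1.26-fold lower, adjusted p = 0.00046). Mrpl20 had 46.7 to 48.8 CPM in Upf2cKO and 58.3 to 63.0 CPM in controls (1.26-fold lower, adjusted p = 3.16e-05). No Upf2cKO library of these genes reached the lowest control.

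**Figure D2:**
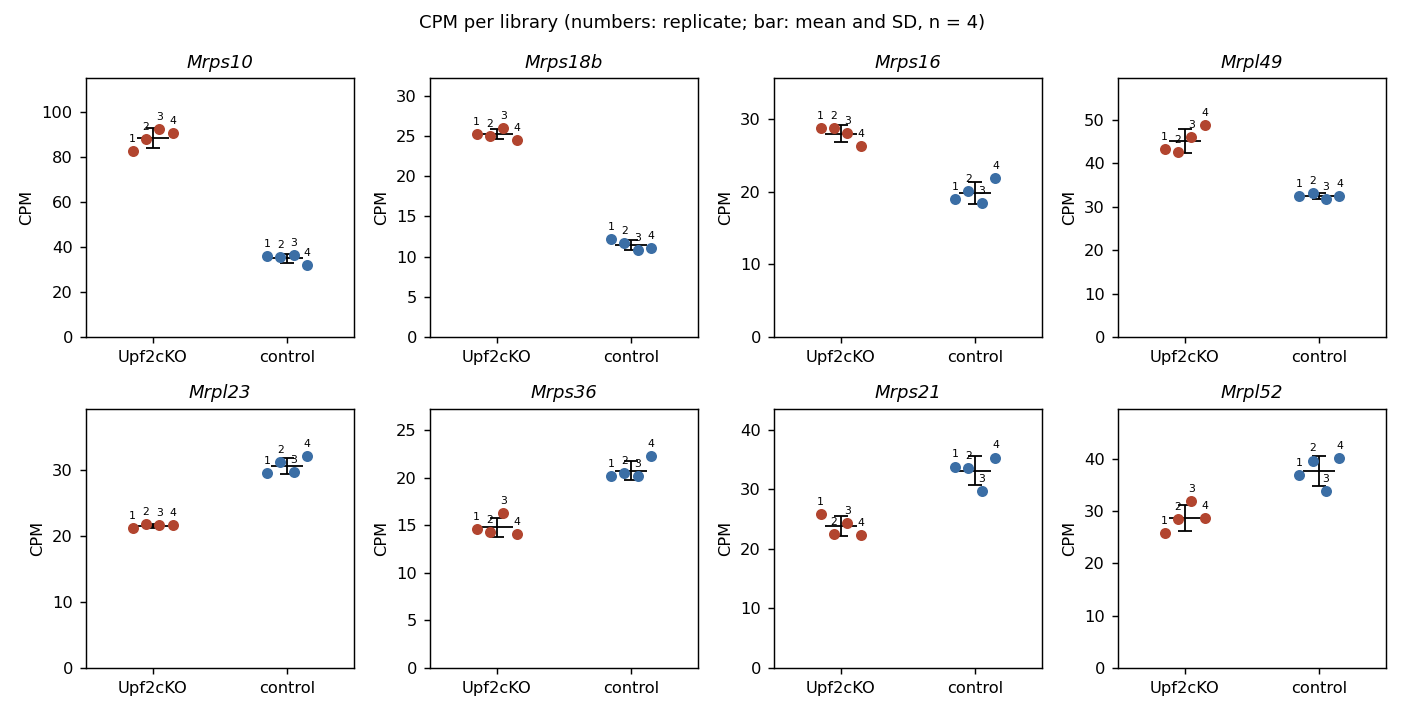
CPM in each library (vertical axes, starting at 0) of the 4 members with the largest rises and the 4 with the largest falls among members past the threshold, with Upf2cKO left of control. Points carry the library number and bars give the mean and SD (n = 4). The groups do not overlap in any of the 8 panels. Mrps10 averages 88.4 CPM in Upf2cKO and 34.97 CPM in controls, and Mrpl23 21.6 CPM in Upf2cKO and 30.7 CPM in controls.

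By subunit, 8 of 26 small-subunit genes were higher and 6 lower, with a median log2 change of 0.05. Of the 50 tested large-subunit genes, 11 were higher and 19 lower, with a median of -0.07. With median-of-ratios scaling these became 8 higher and 11 lower (median -0.01) for the small subunit, and 9 higher and 24 lower (median -0.13) for the large. On the TPM scale they became 11 higher and 5 lower (median 0.11), and 13 higher and 15 lower (median -0.01). The difference between subunits was not tested.

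Summed over its genes, the small subunit had 802, 816, 809 and 805 CPM in Upf2cKO libraries 1 to 4 and 686, 716, 686 and 716 CPM in controls 1 to 4. The large subunit had 1379, 1330, 1378 and 1390 CPM in Upf2cKO and 1424, 1426, 1400 and 1448 CPM in controls. On the CPM scale the small-subunit sums were thus above the controls in every Upf2cKO library and the large-subunit sums below them. On the TPM scale the large-subunit sums overlapped, with 2444 to 2595 TPM in Upf2cKO and 2478 to 2545 TPM in controls. Without Mrps10 and Mrps18b the small-subunit sum averaged 695 ± 5.80 CPM in Upf2cKO and 655 ± 18.7 CPM in controls (SD, n = 4 each), and on the TPM scale 1083 ± 17.9 TPM in Upf2cKO and 1073 ± 38.6 TPM in controls. All members together averaged 2192 ± 21.9 CPM in Upf2cKO and 2146 ± 35.2 CPM in controls, and without that pair 2079 ± 21.1 CPM in Upf2cKO and 2100 ± 36.9 CPM in controls.

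**Figure D3:**
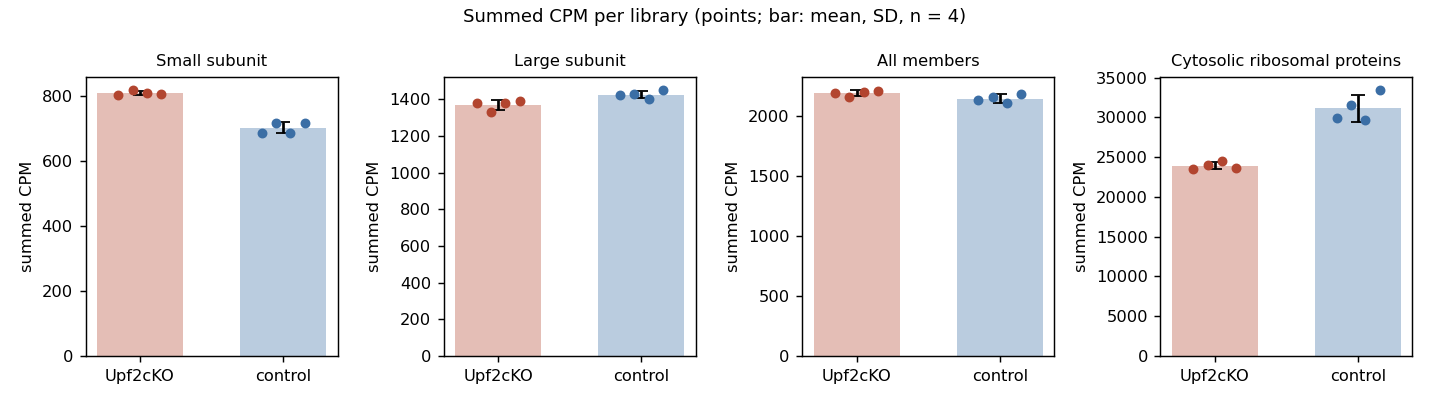
Summed CPM in each library (vertical axes, starting at 0) of the small-subunit members, the large-subunit members, all members and, for comparison, the cytosolic ribosomal protein genes, with Upf2cKO left of control. Points are libraries and bars give the mean and SD (n = 4). Sums over all members are close in the 2 groups (means of 2192 CPM in Upf2cKO and 2146 CPM in controls), whereas the cytosolic sums average 23890 CPM in Upf2cKO and 31150 CPM in controls.

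Members whose proteins sit together in the ribosome were called in both directions. Around the exit tunnel, 3 of 8 members were higher (Mrpl47 by 1.17-fold, Mrpl45 by 1.13-fold and Mrpl17 by 1.08-fold) and 3 were lower (Mrpl23, Mrpl22 and Mrpl44). The call of Mrpl17 was lost under several settings, with adjusted p = 0.211 under median-of-ratios scaling. In the central protuberance, 1 of 6 was higher (Mrpl38, 1.24-fold, adjusted p = 0.000324) and 2 were lower (Mrpl40, 1.21-fold, adjusted p = 0.00127, and Mrpl18, 1.18-fold, adjusted p = 0.00753). Near the peptidyl transferase centre, where peptide bonds form, Mrpl2 was 1.19-fold higher (adjusted p = 0.000676), Mrpl16 was lower and 3 of 5 did not pass. In the stalk that recruits the translational GTPases, Mrpl10 was 1.19-fold higher (adjusted p = 0.00369). Mrpl11 (log2 change -0.07, adjusted p = 0.163) and Mrpl12 (log2 change -0.10, adjusted p = 0.0988) did not pass. By ancestry, 12 of 48 genes of bacterial descent were higher and 14 lower, and 7 of the 28 tested mitochondrial additions were higher and 11 lower. Which direction led among the genes of bacterial descent depended on the scale, with 16 higher and 10 lower by TPM and 10 higher and 21 lower with median-of-ratios scaling, whereas the mitochondrial additions had 8 higher and 10 lower by TPM and 7 higher and 14 lower with that scaling. In the large subunit, 9 of 19 mitochondrial additions were lower and 4 higher, with a median log2 change of -0.14. Mrpl58, a peptidyl-tRNA hydrolase built into the large subunit, was 1.22-fold higher (adjusted p = 0.000429).

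The remaining 32 tested members did not pass the threshold. For 29 of them the log2 change lay between -0.16 and 0.11. The other 3, Mrps34, Mrps24 and Mrps15, varied more among libraries. The most even were Mrpl34 (log2 change 0.01, adjusted p = 0.914), Mrpl1 (0.02, adjusted p = 0.811), Mrps7 (0.03, adjusted p = 0.627) and Mrpl39 (0.04, adjusted p = 0.492), and these small differences changed sign under some of the settings tried.

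Per gene length, the members spanned a mean over all 8 libraries of 5.62 TPM (Mrpl33) to 155 TPM (Mrps21), with a median of 39.4 TPM. After Mrps21 came Mrpl34, with 150 ± 10.8 TPM in Upf2cKO and 143 ± 9.96 TPM in controls, Mrpl20, with 119 ± 2.79 TPM in Upf2cKO and 144 ± 3.27 TPM in controls, and Mrpl12, with 122 ± 4.18 TPM in Upf2cKO and 125 ± 5.49 TPM in controls (SD, n = 4 each). These 4 members thus held both genes that fell and genes that did not pass the test. Mrpl28, the next in TPM, was higher, with 139 ± 3.94 TPM in Upf2cKO and 103 ± 4.46 TPM in controls. The log2 change on the CPM scale minus that on the TPM scale was nearly the same for all tested members, from -0.0651 (Mrps34) to -0.0557 (Mrps18c). It was largest in size for Mrps34, Mrps18b, Mrpl10 and Mrpl2 (Mrpl2 at -0.0618), which stood out little from the rest. All of these named largest differences belonged to genes that kept their direction and call on both scales.

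Libraries of the same group were closely alike for most members. The highest library over the lowest had a median of 1.12-fold among Upf2cKO libraries and 1.11-fold among controls, and for 74 members it reached at most 1.32-fold among Upf2cKO libraries and 1.23-fold among controls. Mrps24, Mrps34 and Mrps15, all of the small subunit, stood outside, and were picked out for that spread. Mrps24 had 13.8, 28.7, 18.7 and 11.97 CPM in Upf2cKO libraries 1 to 4 and 12.7, 29.5, 18.8 and 29.4 CPM in controls 1 to 4 (adjusted p = 0.408). Mrps34 had 5.93, 12.1, 7.93 and 5.67 CPM in Upf2cKO and 3.25, 6.71, 5.39 and 6.26 CPM in controls (adjusted p = 0.108). Mrps15 had 32.4, 43.1, 36.7 and 31.5 CPM in Upf2cKO and 25.6, 32.7, 30.3 and 31.6 CPM in controls (adjusted p = 0.0576). Upf2cKO 2 was the highest and Upf2cKO 4 the lowest mutant library for all 3 genes, and control 1 was the lowest control. In all 3 genes the groups overlapped.

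Mrps34 and Mrps24 also share exon bases with a neighbour on the same strand. Mrps34 shares 763 bases with Nme3, which was listed at 0 in all 8 libraries, and 1309 bases with Mapk8ip3 on the other strand. Mrps24 shares 226 bases with Urgcp, which averaged 33.1 ± 1.70 CPM in Upf2cKO and 35.9 ± 1.88 CPM in controls. The sources used here do not give the counting of reads in such overlaps, so the levels of these genes are uncertain. In all, 33 members share exon bases with another gene, in 8 cases with one transcribed in the same direction and in 28 with one transcribed the other way.

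**Figure D4:**
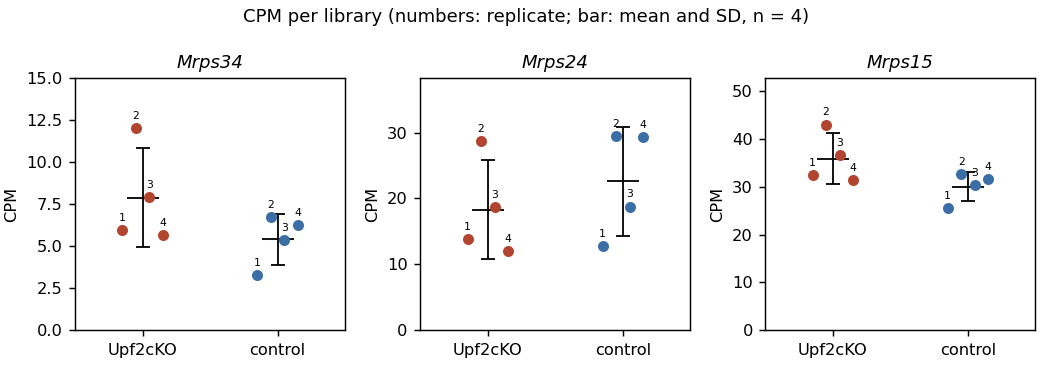
CPM in each library (vertical axes, starting at 0) of Mrps34, Mrps24 and Mrps15, with Upf2cKO left of control. Points carry the library number and bars give the mean and SD (n = 4). Library 2 of Upf2cKO is the highest in that group in each panel, and the ranges of the groups overlap.

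Several members share a start region with a neighbour on the other strand. Pairs of protein-coding genes transcribed away from each other were counted if their starts lay within 1000 bases. Overlap at the starts was allowed only over a short stretch (start distances down to -197 bases, where the minus sign means overlap). Pairs that overlap further, such as Mrpl13 with Mtbp, were left out. By this rule 23 members had a partner, and 6 of the 23 were higher and 9 lower (8 and 7 on the TPM scale, 5 and 11 with median-of-ratios scaling). Of their partners, 14 were higher, 4 lower and 5 not called. Over all 1571 tested protein-coding genes placed in this way, 45.3% were higher and 23.7% lower. Both genes of the pair passed in the same direction in 4 pairs and in opposite directions in 7, and in 5 of those 7 the member was lower and the partner higher. Directions within pairs were not counted over all protein-coding genes placed in this way, so these pair counts show no pattern particular to the members. Mrps18b is 45 bases from Ppp1r10, a regulatory subunit of protein phosphatase 1, which averaged 121 ± 6.67 CPM in Upf2cKO and 80.5 ± 5.04 CPM in controls (1.499-fold higher, adjusted p = 5.38e-06). Mrps18c is 29 bases from the DNA helicase gene Helq, which averaged 58.2 ± 4.36 CPM in Upf2cKO and 21.9 ± 0.872 CPM in controls (2.64-fold higher), while Mrps18c was lower. Mrpl41 (1.21-fold lower) is 935 bases from Pnpla7, which averaged 16.9 ± 0.945 CPM in Upf2cKO and 4.82 ± 0.161 CPM in controls.

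The annotation lists a transcript of the NMD class for 19 tested members, of which 5 were higher and 7 lower, with a median log2 change of -0.06 (6 and 5 by TPM, 3 and 10 with median-of-ratios scaling). Of the 58 tested members without one, 14 were higher and 19 lower, with a median of -0.07 (18 and 16 by TPM, 14 and 26 with median-of-ratios scaling). Over all protein-coding genes tested, 47.9% of those with such a transcript were higher and 21.3% lower, against 31.7% and 31.2% of those without. Mrps10 and Mrps18b have none in that annotation, among 11 and 8 transcripts. Members lie on 17 chromosomes. Of the 8 on chromosome 17, 4 were higher (Mrps10, Mrps18b, Mrpl28 and Mrpl2) and Mrpl18 was lower, where 42.1% of all tested genes of that chromosome were higher and 22.2% lower.

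Other genes of mitochondrial translation were mostly higher in Upf2cKO, and their difference from the members was not tested. Of 6 mitochondrial ribosome proteins with other symbols, 4 were higher and 2 lower, with a median log2 change of 0.31. Ptcd3, a small-subunit protein, averaged 129 ± 7.85 CPM in Upf2cKO and 64.6 ± 3.35 CPM in controls (1.99-fold higher, adjusted p = 7.41e-08), and Aurkaip1, also of the small subunit, 41.4 ± 1.53 CPM in Upf2cKO and 23.1 ± 1.67 CPM in controls (1.79-fold higher, adjusted p = 5.62e-07). Dap3, a GTP-binding small-subunit protein, was 1.21-fold lower, with 58.7 ± 0.516 CPM in Upf2cKO and 70.8 ± 1.17 CPM in controls (adjusted p = 4.54e-05).

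Of 28 assembly factors, 17 were higher and 5 lower, with a median of 0.26. Ngrn, which is needed for the large-subunit RNA, averaged 54.4 ± 3.11 CPM in Upf2cKO and 25.9 ± 0.811 CPM in controls (2.10-fold higher, adjusted p = 2.55e-08). Eral1, a chaperone of the small-subunit RNA, averaged 28.6 ± 1.17 CPM in Upf2cKO and 14.96 ± 0.572 CPM in controls (1.90-fold higher, adjusted p = 9.78e-08). Spg7, a subunit of the inner-membrane protease that matures a large-subunit protein, was 2.08-fold higher (adjusted p = 8.97e-08).

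Of the 14 tested mitochondrial translation factors, 10 were higher and 0 were lower by limma (10 had an unadjusted p below 0.05), with a median of 0.48, and with median-of-ratios scaling 10 were higher and 1 lower. Mtrf1l, a release factor, averaged 25.4 ± 1.24 CPM in Upf2cKO and 10.4 ± 0.428 CPM in controls (2.42-fold higher, adjusted p = 1.84e-08). Gfm2, which recycles the ribosome, averaged 70.1 ± 1.27 CPM in Upf2cKO and 38.2 ± 1.17 CPM in controls (1.84-fold higher, adjusted p = 1.71e-08), and the elongation factor Gfm1 was 1.45-fold higher (adjusted p = 3.42e-07). The list of mitochondrial aminoacyl-tRNA synthetases, which load amino acids onto tRNAs, held 22 genes. Of these, 14 were higher and 2 lower, with a median of 0.45 (13 and 4 with median-of-ratios scaling). That list also included Qrsl1, Gatb and Gatc, subunits of an amidotransferase and not synthetases, and Gars and Kars, which also provide the cytosolic enzymes. Gatb and Gars were among the higher genes, and Kars was among the lower. Ears2, for glutamate, averaged 35.2 ± 1.34 CPM in Upf2cKO and 14.0 ± 0.615 CPM in controls (2.50-fold higher, adjusted p = 7.92e-09), Vars2, for valine, was 2.30-fold higher (adjusted p = 1.45e-08) and Tars2, for threonine, 2.08-fold higher (adjusted p = 8.62e-09).

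Of 16 genes of mitochondrial transcription, RNA processing and DNA maintenance, 10 were higher and 3 lower, with a median of 0.29. They included the RNA helicase Supv3l1 (2.63-fold higher, adjusted p = 1.01e-08), the primase-polymerase Primpol (2.78-fold, adjusted p = 1.68e-08) and the tRNA-processing enzyme Elac2 (1.79-fold, adjusted p = 1.83e-07). Of 11 regulators of mitochondrial biogenesis and ribosome gene transcription, 3 were higher and 5 lower, with a median of -0.21 (4 and 4 on the TPM scale). Mycn averaged 99.1 ± 3.19 CPM in Upf2cKO and 135 ± 3.31 CPM in controls (1.36-fold lower, adjusted p = 2.27e-06). Gabpa, the DNA-binding subunit of an ETS factor, averaged 46.6 ± 4.29 CPM in Upf2cKO and 59.5 ± 3.49 CPM in controls (1.28-fold lower, adjusted p = 0.000916), and Yy1, whose product binds the YY1 motif, averaged 140 ± 7.44 CPM in Upf2cKO and 116 ± 3.35 CPM in controls (1.21-fold higher, adjusted p = 0.00037).

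None of the tested mitochondrial mRNAs and ribosomal RNAs passed the test, and most cytosolic ribosomal protein genes fell. The list held 15 genes, without the tRNAs, and mt-Atp8 and mt-Nd4l did not pass the filter. Of the 13 tested, 0 passed the limma threshold in either direction and 0 had an unadjusted p below 0.05, and with median-of-ratios scaling 2 were lower. Most RNA of this kind was that of mt-Co1, with 7183 ± 904 CPM in Upf2cKO and 6869 ± 434 CPM in controls (adjusted p = 0.603), and mt-Cytb, with 4115 CPM in Upf2cKO and 3988 CPM in controls (adjusted p = 0.629). Others were listed near 0, such as mt-Co2, with 1.72 CPM in Upf2cKO and 1.32 CPM in controls. Of the 80 tested cytosolic ribosomal protein genes, 69 were lower and 3 were higher (Rps10, Rpl12 and Rpl10a), with a median log2 change of -0.42 against -0.07 for the mitochondrial members. Rps27a averaged 219 ± 8.14 CPM in Upf2cKO and 330 ± 11.3 CPM in controls (1.51-fold lower, adjusted p = 5.08e-07). Rpl30 was 1.45-fold lower and Rpl34 1.38-fold lower. The cytosolic sum was below every control in every Upf2cKO library, as the plot of sums by library shows, and the difference between the cytosolic and mitochondrial lists was not tested.

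**Figure D5:**
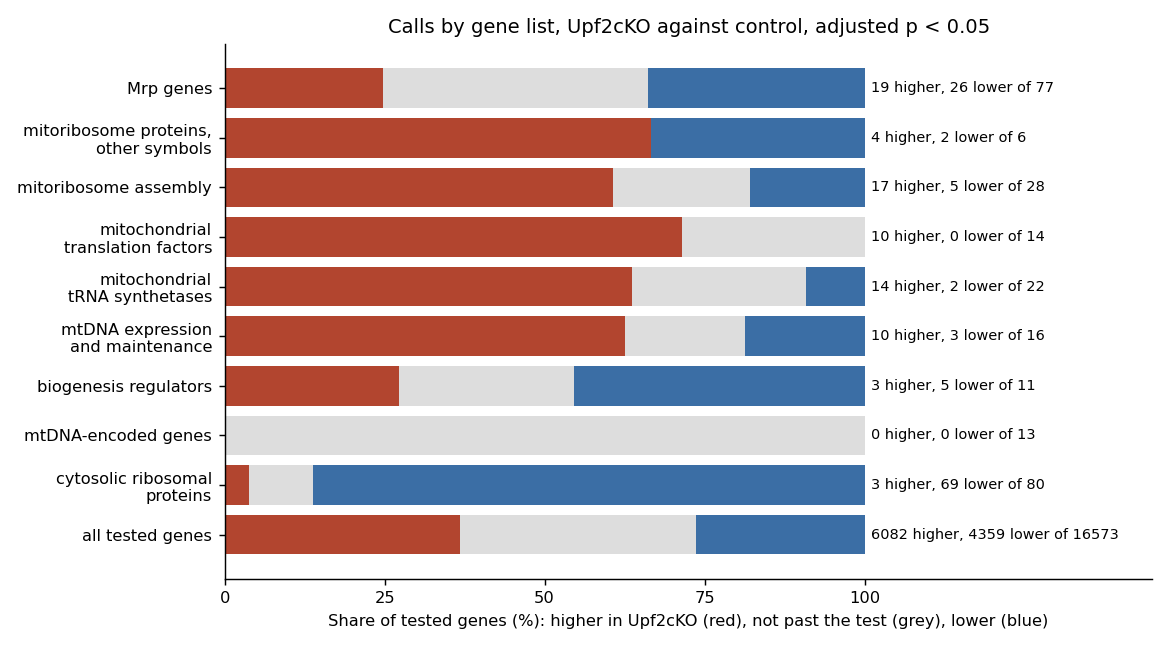
Share of the tested genes of each list (horizontal axis, percent) that were higher, not past the limma threshold or lower in Upf2cKO. The mitochondrial ribosomal protein genes are 24.7% higher and 33.8% lower, next to 36.7% and 26.3% of all tested genes, and 86.2% of the cytosolic ribosomal protein genes are lower.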

How the data were processed

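Cortical RNA of E18.5 mouse embryos was measured in 4 Upf2cKO and 4 control libraries. The authors deposited a CPM table (reads per gene over the reads assigned to genes) and a TPM table (also divided by gene length), with 55487 Ensembl identifiers, 1 column per library and 2 decimals. The submitters' processing notes name STAR 2.7.11a, fastp 0.23.4, MultiQC 1.25, Picard 3.1.1 and DESeq2, and the build mm10, with no role for each. How reads were counted, with which strand setting and annotation, is not stated there or in the labels. Per the labels' protocols, a stranded kit for total RNA was used, while the same text purifies mRNA and the molecule is labelled polyA RNA, so the selection is uncertain. Since CPM values of a library add up to a fixed total, a rise in some genes lowers others.

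A gene was kept if 4 or more of the 8 libraries reached 0.5 CPM. log2(CPM + 0.1) was then compared between the groups in limma 3.58.1 under R 4.3.3 (2-sided, intensity trend, no covariate), and p-values of the 16573 genes were adjusted by Benjamini-Hochberg at 0.05. Folds come from log2(CPM + 0.1) and understate changes of low genes. All adjusted p-values are limma's. The fit was tested on simulated data. Depth was estimated from the steps between low TPM values of short genes. Within 0.15 reads, 100% of the 644 to 821 values used per library came out whole, but the rounded CPM did not give whole reads for all genes, so no count test was run. Symbols, coordinates, gene classes, overlaps and transcript classes are from GENCODE M21 (mm10), which named 55227 of the 55487 identifiers and may differ from the authors' annotation.

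The members, lists and tests were chosen with earlier results of these data known. The genes named are Upf2, the 8 largest rises and 8 largest falls among members past the threshold, the 4 members highest in TPM, the 4 nearest to no change, the 4 with the largest difference between the CPM and TPM changes, and from each other list the 3 genes past the threshold of lowest adjusted p, or the 2 highest in level where none passed. Members named for their place in the ribosome, their neighbours, their spread or a value of 0, and the genes beside them, fall outside that rule and were picked once their values had been seen. The alternatives were the TPM table, pseudocounts of 1 and 0.01, no filter, a filter of 2 CPM, median-of-ratios scaling, no intensity trend, a replicate block, and leaving out libraries.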

Additional observations from a re-analysis of the deposited data

Results flagged for a closer look

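Over the 154 groups of 4 libraries formed by the 77 tested members, 1 library lay far from the other 3 in 10. Chance alone flags about 1 in 20 such groups. In Upf2cKO 1, Mrpl27 (14.1 CPM, others 12.9), Mrps7 (33.13 CPM, others 30.0 to 30.3) and Mrpl41 (26.19 CPM, others 23.0 to 23.2) were high and Mrpl15 (44.49 CPM, others 46.4 to 46.6) was low. Mrpl28 was high in Upf2cKO 3 (47.61 CPM, others 45.9 to 46.2), and Mrps30 was high in Upf2cKO 4 (16.8 CPM, others 13.2 to 13.7). Among controls, Mrpl33 (10.85 CPM, others 9.69 to 9.74) and Mrps18c (6.47 CPM, others 5.39 to 5.57) were high in control 1, Mrpl57 was low in control 3 (18.86 CPM, others 20.9 to 21.2) and Mrps36 was high in control 4 (22.27 CPM, others 20.2 to 20.5).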

How the results depend on the processing

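In every one of the 17 alternatives, 17 of the 19 higher members and 21 of the 26 lower members kept their call. Mrpl21 and Mrpl17 (higher) and Mrpl32, Mrpl19, Mrpl51, Mrpl15 and Mrps28 (lower) lost it in at least 1, with adjusted p of 0.0517 to 0.263 there, and no called member changed sign. Leaving out any of the 8 libraries but Upf2cKO 4 lost at least 1 of these 7 calls, the 5 lower ones were also lost on the TPM scale and the 2 higher ones with median-of-ratios scaling. The median log2 change of the members, -0.0711, was -0.011 on the TPM scale and -0.126 with median-of-ratios scaling. The step from CPM to TPM was nearly the same for all tested members, so it does not follow the length of each gene. For a gene of 1 kb, 1 CPM stood for 4.093 to 4.186 TPM in Upf2cKO libraries and 3.905 to 4.002 TPM in controls. What lies behind these differences between libraries was not tested. The median of all genes tested on CPM, 0.0404, was 0.0989 by TPM (over the 16409 of them that pass its filter) and -0.0141 with median-of-ratios scaling. Leaving out 1 library at a time gave 17 to 20 higher and 22 to 27 lower members, a median of -0.0806 to -0.0497 (-0.0501 without Upf2cKO 2 and -0.0497 without control 2), 13 to 16 small-subunit and 25 to 31 large-subunit calls, 143 to 149 calls over the other lists and 9651 to 10660 over all genes. Without Upf2cKO 4 and control 4, which hold choroid plexus markers, 19 members were higher and 25 lower, with a median of -0.0574.

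Same-numbered libraries deviated together with correlations of 0.423, 0.052, 0.523 and 0.186, and 3 of 4 matched their own number best, a hint of shared structure in the data that the labels do not explain. Since not every correlation was over 0.1, the fit without the block was kept. With the replicate block, 20 members were higher and 26 lower, 16 small-subunit and 29 large-subunit members and 10549 of all genes were called, and Mrps34 passed (log2 change 0.5231, adjusted p = 0.0149).

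Of 816 values of named genes under alternatives, 15 changed sign, all of genes far from the threshold. With median-of-ratios scaling Mrpl34 was at -0.0466, Mrpl1 at -0.0338, Mrps7 at -0.0252, Mrpl39 at -0.0151 and mt-Cytb at -0.0128. Mrpl34 was at -0.0242 without Upf2cKO 3, -0.0076 without Upf2cKO 4, -0.03 without control 2 and -0.0075 without control 3. Mrpl1 was at -0.0277 without Upf2cKO 4, -0.0243 without control 4 and -0.0734 without both. Without Upf2cKO 1, Mrps7 was at -0.0033, mt-Co1 at -0.013 and mt-Cytb at -0.0066. Mrpl12 passed with median-of-ratios scaling (-0.1537, adjusted p = 0.0207) and without control 3 (-0.1298, adjusted p = 0.0406). Over all settings that leave out 1 library, values reached up to 0.0386 for Mrpl34, 0.0563 for Mrpl1, 0.1118 for mt-Co1 and 0.0785 for mt-Cytb, and Mrps7 reached 0.0534 (0.0633 without Upf2cKO 4 and control 4). Reads per gene were not recovered, so counting error was not set beside the spread between libraries.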
